A study of Mus musculus with 10 samples.

Results

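The genes described here encode 8 regulators of G protein signalling, the RGS proteins Rgs1, Rgs2, Rgs3, Rgs10, Rgs14, Rgs16, Rgs18 and Rgs19. They were chosen by name from a family whose members are well known in lymphocytes, and all 8 were found among the 53656 genes of the count tables. The libraries came from CD4 T cells of mice transgenic for SMARTA, a T cell receptor specific for the GP61 peptide of lymphocytic choriomeningitis virus. In 6 libraries the cells were TOX knockout (KO) and in 4 they were TOX wild type (WT); TOX is a nuclear HMG-box protein known from T cell development and exhaustion. Naive cells of both kinds were given to B6 mice that had been treated with cytoxan and carried B16-GP61, a melanoma line bearing the peptide, and were sorted from the tumour-draining lymph node on day 11 after transfer. All libraries share the receptor transgene, the cytoxan treatment, the tumour, the organ and the day.

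The groups differ in more than the Tox gene. KO cells were sorted as CD4+, Ly5.1+ and Ly5.2- with the gates PD1lo, LAG3lo and CD39lo, whereas WT cells were CD4+ and positive for both Ly5 forms with the gates PD1hi, LAG3hi and CD39hi. PD1, LAG3 and CD39 are surface proteins that chronically stimulated T cells carry at high levels. Genotype, gate and congenic marker therefore cannot be told apart, and a WT to KO difference below is a difference between these sorted populations. The labels give no ages and number the replicates without naming the animals, so the p-values speak of these libraries, whose spread may in part be technical. Bulk RNA also cannot separate fewer cells of a type from less RNA per cell.

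RGS proteins act on the alpha subunits of heterotrimeric G proteins, which receptors such as chemokine receptors switch on by loading them with GTP. An RGS domain speeds up the hydrolysis of that GTP, so the signal ends sooner. In lymphocytes these proteins are known for setting how strongly and how long a cell answers chemokines and other ligands. Rgs1, Rgs2, Rgs3, Rgs16 and Rgs18 belong to the R4 subfamily, Rgs10 and Rgs14 to the R12 subfamily, and Rgs19 (also known as GAIP) to the RZ subfamily.

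Of the 8 genes, 4 lie on chromosome 1 (GRCm38), in the order Rgs2, Rgs1, Rgs18 and Rgs16, with gaps of 238, 503 and 8965 kb between neighbours. RefSeq promoters of 230 bases (GRCm38.p6), each ending 20 bases before the transcription start, were at hand for 5 of the 8 genes. Those of Rgs2 and Rgs16 are shown because these R4 genes share a chromosome and both had higher means in library numbers 4 to 8 than in numbers 1 to 3, as described below. Both run 5′ to 3′ on the gene's own strand, Rgs2 at chr1:144004170-144004399 (minus strand) and Rgs16 at chr1:153740103-153740332 (plus strand). Capitals mark matches, on either strand, to the CRE half-site TGACG, the CCAAT box and the GC box GGGCGG.
Rgs2: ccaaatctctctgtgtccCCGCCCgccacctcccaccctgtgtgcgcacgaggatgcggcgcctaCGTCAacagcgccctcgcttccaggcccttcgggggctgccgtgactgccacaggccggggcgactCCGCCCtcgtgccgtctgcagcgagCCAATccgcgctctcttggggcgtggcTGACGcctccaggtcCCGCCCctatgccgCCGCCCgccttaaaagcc
Rgs16: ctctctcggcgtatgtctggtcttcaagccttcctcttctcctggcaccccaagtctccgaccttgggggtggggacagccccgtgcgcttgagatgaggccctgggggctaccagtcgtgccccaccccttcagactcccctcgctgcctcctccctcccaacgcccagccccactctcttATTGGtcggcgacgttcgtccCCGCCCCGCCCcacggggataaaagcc
The Rgs2 window held the CRE half-site 2 times, the CCAAT box 1 time and the GC box 4 times. The Rgs16 window held no CRE half-site, 1 CCAAT box and 2 GC boxes, which overlap each other. Neither held the AP-1 letters TGANTCA. Of 32851 promoters of this length in the table, 15.9% held the CRE half-site, 32.2% the CCAAT box, 29.8% the GC box and 6.34% the AP-1 letters. G and C made up 70.9% of the Rgs2 window and 66.1% of the Rgs16 window, against a median of 51.7% over the table. These matches describe the letters only, since no binding was measured.

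Library totals were 31939816 to 45481478 counts in WT and 36028980 to 55784453 in KO. Levels are given in CPM, counts per 1000000 counts of a library after TMM scaling, which corrects for a few abundant genes taking up reads. The groups were compared over 14214 genes with edgeR's quasi-likelihood test and Benjamini-Hochberg adjustment, a gene being called at an adjusted p under 0.05; log2 fold changes are KO minus WT. Tox, the check of genotype, averaged 31.0 ± 20.8 CPM over KO libraries (SD, n = 6) against 236 ± 88.0 CPM over WT libraries (SD, n = 4), with no overlap. KO libraries still held 15.3 to 68.0 CPM. Because the gate differs as well, this difference cannot by itself show the genotype. Pdcd1, which encodes PD1, averaged 431 ± 74.1 CPM in KO against 1092 ± 353 CPM in WT. That is the direction of the gate, which cannot be told apart from genotype here. It was called lower in KO (edgeR adjusted p = 0.016) and kept the call in 6 of 10 fits without 1 library. B cell and macrophage and monocyte markers were higher in WT. The 10 B cell markers summed to 2616 to 10619 CPM in WT and 80.1 to 318 CPM in KO, and 7 of the 10 were called lower in KO. The 10 macrophage and monocyte markers summed to 1232 to 7223 CPM in WT and 18.9 to 200 CPM in KO, with 5 of 10 called lower, and no marker of either list was at 0 in all KO libraries. The sum of the 4 NK cell markers went the other way, at 8.17 to 64.6 CPM in WT and 168 to 273 CPM in KO. Nearly all of it in KO was Klrb1c, at 167 to 273 CPM. Ncr1, the other tested NK cell marker, was lower by mean in KO (0.59 against 5.35 CPM). The libraries also fall into a set with numbers 1 to 3 in their names (3 KO, WT replicate 1) and a set with numbers 4 to 8 (3 KO, 3 WT), with 14365 to 15873 and 16348 to 19775 genes detected; what the numbers stand for is not given.

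None of the 7 RGS genes that passed the filter on low counts was called in either direction. Over all genes 0.429% were called higher and 2.7% lower in KO, so a list of this size would hold few calls at the background rate. Before adjustment, 3 of the 7 had a p under 0.05 in edgeR's test (Rgs1, Rgs14 and Rgs16), as had 18% of all genes. DESeq2 and limma-voom also called 0 of the 7. The median log2 fold change of the 7 was 0.28, beside -0.12 over all genes tested; 4 values were positive and 3 negative. Rgs18, the eighth gene, did not pass the filter.

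Rgs1, an R4 protein known for restraining lymphocyte migration toward chemokines, was the only tested member whose groups did not overlap in CPM. The WT libraries held 32.2, 51.1, 26.5 and 37.3 CPM (replicates 1 to 4). The KO libraries ran from 1.50 CPM through a median of 9.41 to 24.9 CPM. Every KO library thus lay below every WT library, which 6.31% of all tested genes also showed in this direction and 2.59% in the other. The log2 fold change was -1.63 (SE 0.61, unadjusted p = 0.023, edgeR adjusted p = 0.20), a level 3.09-fold higher in WT. Counts for Rgs1 ranged from 53 to 1792 per library. Within the KO group the highest library was 16.6 times the lowest, so that the spread among KO libraries was wider than the difference between the groups.

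Rgs16, an R4 protein known as a gene induced on T cell activation, had nearly the same log2 fold change, -1.65 (SE 0.58, unadjusted p = 0.016, edgeR adjusted p = 0.17). Its WT libraries held 24.4, 58.0, 28.6 and 49.3 CPM. In KO it ran from 3.69 CPM through a median of 12.8 to 25.4 CPM. The groups touched at 1 point, where KO replicate 5 stood just above WT replicate 1. Only 1 gene shares exon sequence with Rgs16 in the annotation, RP23-184B11.6 on the other strand, and at a mean of 0.017 CPM it could add little to the unstranded counts.

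Rgs2, an R4 protein known for its preference for Gq alpha subunits, had group means that differed by less than the spread between libraries. WT held 42.5, 120, 68.9 and 109 CPM and KO ran from 31.3 through a median of 80.5 to 130 CPM. Means were 85.1 ± 35.8 CPM (WT, SD, n = 4) and 81.3 ± 36.6 CPM (KO, SD, n = 6). The log2 fold change was -0.07 (SE 0.44, edgeR adjusted p = 0.95), and each group's libraries covered most of the range of the other's. Rgs3, the largest R4 protein, known also in forms with long N-terminal extensions, held 33.7, 120, 98.8 and 64.0 CPM in WT. KO libraries ran from 68.3 through 130 to 152 CPM. Its log2 difference of 0.55 (SE 0.40, edgeR adjusted p = 0.50) was smaller than the range within either group.

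Rgs18, an R4 protein best known from platelets and their precursors, was without a single count in the 6 KO libraries. WT replicates 1 to 4 had 0, 3, 134 and 123 counts, which are 0, 0.086, 3.57 and 3.46 CPM. The gene was thus detected almost wholly in 2 of 10 libraries. Set against a floor of 3 counts over the KO group, the pooled WT level was at least 154-fold higher, a bound for counting error only that rests on WT replicates 3 and 4. Without the filter on low counts the difference was not called (edgeR adjusted p = 0.11). Beside it, the 5 neutrophil markers summed to 3.33, 120, 452 and 426 CPM in WT replicates 1 to 4 and to 0.021 to 62.3 CPM in KO. The 5 megakaryocyte and platelet markers summed to 0.57 to 2.51 CPM in WT and 0 to 0.81 CPM in KO, with Itga2b at 0 in all KO libraries and Gp1bb at 0 in all 10 libraries. The part of such cells in the Rgs18 counts was not tested.

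**Figure D1:**
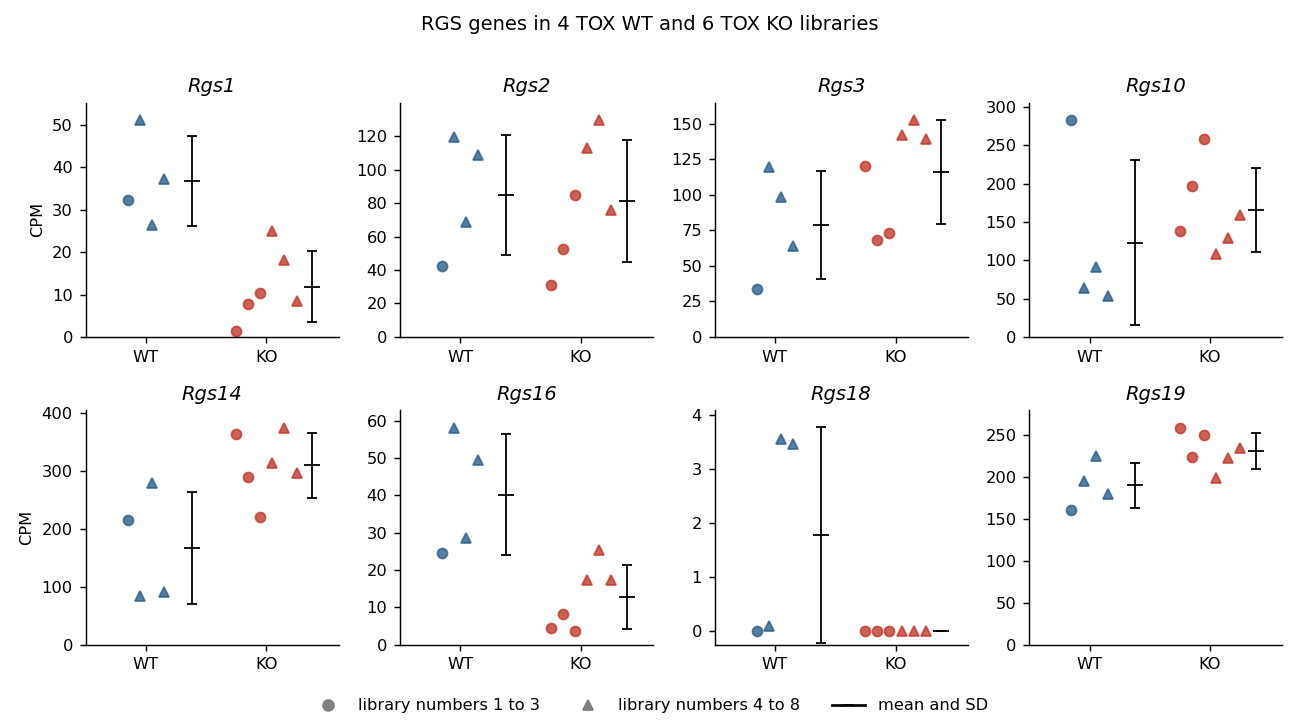
Level of each RGS gene in CPM (vertical axis, a separate linear scale per gene) in the 4 WT and 6 KO libraries. Each point is 1 library, circles are library numbers 1 to 3, triangles numbers 4 to 8, and bars show mean and SD; the WT points of Rgs1, 26.5 to 51.1 CPM, all lie above its KO points, 1.50 to 24.9 CPM, and WT replicate 1 stands apart for Rgs10 at 283 CPM.

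The R12 genes had higher means in KO. Rgs14, which carries Ras-binding domains and a GoLoco motif beside its RGS domain, held 215, 83.0, 280 and 90.8 CPM in WT. KO libraries ran from 221 through a median of 305 to 375 CPM, so that WT replicates 2 and 4 lay far below all KO libraries, WT replicate 1 just below them and WT replicate 3 among them. Means were 167 ± 96.4 CPM (WT, SD, n = 4) and 310 ± 56.0 CPM (KO, SD, n = 6). That difference of 0.89 on the log2 scale (SE 0.37, unadjusted p = 0.037) did not pass after adjustment (edgeR adjusted p = 0.25).

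Rgs10, a small R12 protein abundant in immune cells and known for limiting Gi signals and integrin-dependent adhesion, depended on a single library. WT replicate 1 held 283 CPM, the highest value of all 10 libraries, and WT replicates 2 to 4 held 64.2, 90.8 and 53.9 CPM. KO libraries ran from 109 through 149 to 259 CPM, above each of those 3. With all libraries the log2 fold change was 0.43 (SE 0.48, edgeR adjusted p = 0.69). Without WT replicate 1 it was 1.25 and was called (edgeR adjusted p = 0.044). Leaving that library out raised the share of all genes called as well, to 2.92% higher and 7.9% lower in KO.

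Rgs19, the RZ member, known for acting on Gi and Gz alpha subunits, was the steadiest gene of the 8. WT held 160, 195, 224 and 179 CPM and KO ran from 198 through 229 to 258 CPM. Its coefficient of variation was 9.35% over the KO libraries and 14.3% over the WT libraries, against 70.1% and 28.7% for Rgs1. The log2 fold change was 0.28 (SE 0.20, edgeR adjusted p = 0.48).

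Because CPM favours long transcripts, levels were compared between genes as CPM per kb of exon. The length is that of all annotated exons merged, which for Rgs1 covers its whole locus (6947 bp). On this scale Rgs19 had the highest mean in both groups, at 103 ± 9.67 CPM per kb (SD, n = 6) in KO and 85.0 ± 12.1 (SD, n = 4) in WT. Rgs10 followed with 96.6 ± 32.0 in KO and 71.9 ± 63.0 in WT, and Rgs14 with 73.1 ± 13.2 and 39.4 ± 22.7. In KO the ranges of these 3 genes overlapped in turn, and all Rgs14 values (52.1 or more) lay above all Rgs2 values (35.7 or less). In WT the same order held, but Rgs14 and Rgs2 overlapped. Rgs2 stood at 22.4 ± 10.1 CPM per kb in KO and 23.5 ± 9.88 in WT.

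The lower end of the order changed with the group. In KO it was Rgs3 (10.7 ± 3.39 CPM per kb), Rgs16 (5.46 ± 3.69) and Rgs1 (1.71 ± 1.20). In WT it was Rgs16 (17.1 ± 6.92), Rgs3 (7.32 ± 3.51) and Rgs1 (5.29 ± 1.52). Neighbours in these orders overlapped in range, apart from Rgs18, which was last in both groups at 0 in KO and 0.88 ± 0.99 in WT. With the length of the longest protein-coding transcript instead, a choice added after the data were seen, Rgs10 came before Rgs19, at 188 ± 62.2 against 153 ± 14.3 CPM per kb in KO and 140 ± 123 against 125 ± 17.9 in WT, with overlapping ranges. The other genes kept their order. By that length (3841 bp) Rgs1 stood at 3.09 ± 2.17 CPM per kb in KO and 9.57 ± 2.74 in WT, still below the other 6 genes of the plot of levels per length by mean, with ranges that overlapped those of Rgs16 in both groups and of Rgs3 in WT.

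**Figure D2:**
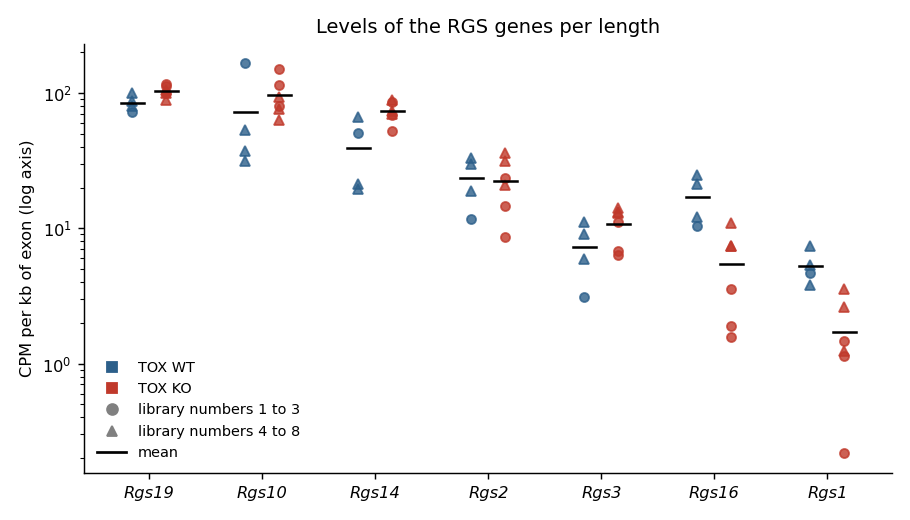
Levels of the 7 RGS genes with counts in every library, in CPM per kb of merged exons on a log axis, by gene. Points are libraries (blue WT, red KO, circles numbers 1 to 3, triangles numbers 4 to 8) and lines are group means; Rgs19 has the highest means, 103 in KO and 85.0 in WT, and Rgs1 the lowest, 1.71 in KO and 5.29 in WT.

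Values of several members differed between the library sets by as much as between the genotypes. In a fit with terms for both, Rgs16 was called higher in numbers 4 to 8 (log2 difference 1.52, SE 0.40, edgeR adjusted p = 0.032) and Rgs10 was called lower there (-1.11, SE 0.32, edgeR adjusted p = 0.048). That term called 4.95% of all genes higher and 9.02% lower in numbers 4 to 8, beside 1 of the 7 members in each direction. Rgs16 rose from 5.48 ± 2.47 to 20.05 ± 4.62 CPM among KO libraries (SD, n = 3 each) and was at 24.4 CPM in the 1 WT library of the first set and 45.3 ± 15.1 CPM (SD, n = 3) in the second. Rgs10 was at 198 ± 60.4 and 133 ± 25.6 CPM in the KO libraries of the 2 sets, and at 283 CPM and 69.6 ± 19.0 CPM in WT. The set differences of Rgs2 (1.02, edgeR adjusted p = 0.075), Rgs3 (0.96, edgeR adjusted p = 0.056) and Rgs1 (0.98, edgeR adjusted p = 0.28) were positive without passing. Those of Rgs14 and Rgs19 were -0.07 and -0.01.

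With the set held constant, the genotype differences of Rgs1 and Rgs16 kept their sign. Rgs16 was at -1.52 (edgeR adjusted p = 0.056) and Rgs1 at -1.56 (edgeR adjusted p = 0.15) in the fit with both terms. Within numbers 4 to 8, with 3 libraries a group, they were at -1.09 for each gene (edgeR adjusted p = 0.14 for Rgs16 and 0.21 for Rgs1). Within numbers 1 to 3, where WT has 1 library that is assumed to vary like the others, Rgs16 was at -2.12 and Rgs1 at -2.26 (edgeR adjusted p = 0.17 and 0.26). Rgs10 changed sign between the sets, from -0.48 in numbers 1 to 3 (edgeR adjusted p = 0.48) to 0.99 in numbers 4 to 8 (edgeR adjusted p = 0.12). Rgs2 was at 0.44 and 0.17, Rgs3 at 1.41 and 0.68, Rgs14 at 0.48 and 1.16, and Rgs19 at 0.64 and 0.19, none of which passed.

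Since B cell and macrophage and monocyte markers were higher in the WT libraries, levels were also set against the T cells' own transcripts, the 8 genes Cd3d, Cd3e, Cd3g, Cd247, Trac, Trbc1, Trbc2 and Cd4. These genes summed to 8702 to 21293 CPM in WT and 15402 to 30430 CPM in KO. Per 1000 counts of these genes, Rgs1 had 1.51, 3.55, 3.04 and 2.90 counts in WT and 0.098 to 1.04 in KO. Rgs16 had 1.15, 4.04, 3.28 and 3.84 in WT and 0.16 to 0.83 in KO. On this scale both genes separated the groups, with each KO library below each WT library, as did 16.1% of all genes in this direction and 0.211% in the other. Rgs2 had 2.00, 8.32, 7.92 and 8.48 counts in WT and 2.03 to 4.72 in KO, so that WT replicate 1 lay below all KO libraries and the other 3 above.

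Scaled in this way, the edgeR test called Rgs16 (-2.60, SE 0.55, edgeR adjusted p = 0.015) and Rgs1 (-2.53, SE 0.58, edgeR adjusted p = 0.020) lower in KO, 2 of 7, where 13.1% of all genes were called lower and 0.12% higher. The scaling moved the median of all genes by -0.83; relative to that shift Rgs16 was at -1.77 and Rgs1 at -1.70. The Rgs16 call was lost without WT replicate 4 (edgeR adjusted p = 0.055), and the Rgs1 call without KO replicate 6, WT replicate 2 or WT replicate 4 (largest edgeR adjusted p = 0.063). Rgs2 went to -1.01 (edgeR adjusted p = 0.14), and without WT replicate 1 it was called as well (-1.31, edgeR adjusted p = 0.011). That fit called 4719 of 15197 genes lower, and it moved the median of all genes by -1.07 from the TMM fit. The positive signs of Rgs3, Rgs10 and Rgs19 turned under this scaling, to -0.38, -0.15 and -0.55, and Rgs14 went to 0.01. So under both scalings Rgs1 and Rgs16 were the lowest of the 7 in KO relative to WT, and the signs of Rgs2, Rgs3, Rgs10 and Rgs19 turned under the other scaling, a library-set term or within a set. Rgs14 was positive in every fit with all libraries except the one that joined this scaling with a term for library set (-0.024). How much of the T cell scaled difference comes from receptor gene levels themselves was not tested.

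**Figure D3:**
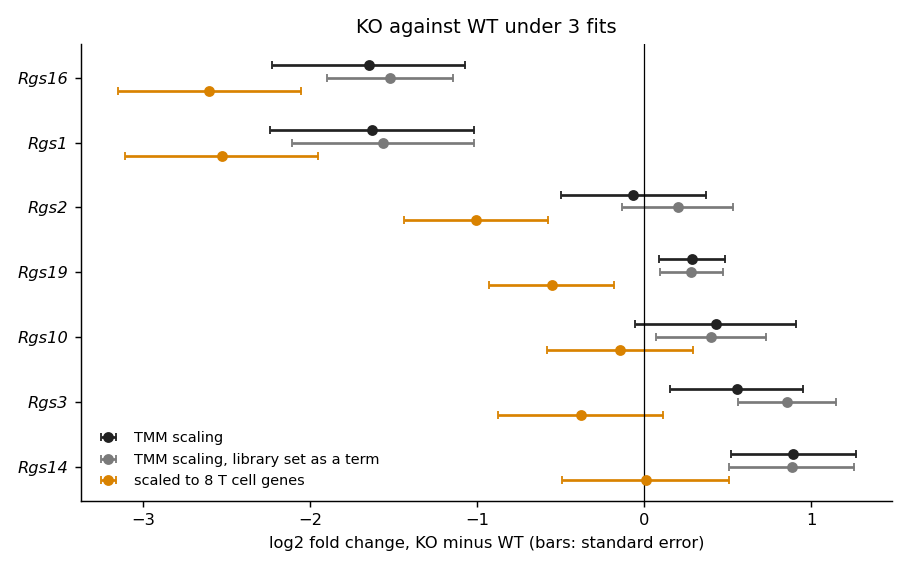
Log2 fold change, KO minus WT, of the 7 tested RGS genes (horizontal axis, bars are standard errors) under TMM scaling, TMM scaling with a term for library set, and scaling to 8 T cell genes. Rgs16 and Rgs1 lie at -1.65 and -1.63 under TMM and at -2.60 and -2.53 under the T cell scaling, whereas Rgs3, Rgs10 and Rgs19 change sign between the 2 scalings.

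The other genes of the pathway were described from fixed lists. Of 16 further genes named after RGS proteins, only Rgs11 and Rgs12 passed the filter on low counts and neither was called. The 16 include Rgs7bp and Rgs9bp, whose names stand for proteins that bind RGS proteins. Rgs12, a large R12 protein, averaged 9.72 ± 5.62 CPM in KO (SD, n = 6) against 7.68 ± 8.84 CPM in WT (SD, n = 4). Of the 16, 11 were at 0 counts in every KO library and 6 in all 10 libraries (Rgs7, Rgs20, Rgs21, Rgs22, Rgsl1 and Rgs7bp). Rgs13, known from germinal centre B cells, was at 0 counts in KO and had 0, 35, 15 and 57 counts in WT replicates 1 to 4, beside the marker values of B cells given above. Of 9 proteins of other families with an RGS homology domain, 0 were called (3 with an unadjusted p under 0.05 in edgeR's test, as had 18% of all genes). DESeq2 called 2 of the 9 higher, beside 613 of 14214 genes, and limma-voom called 0. Of the 9, Arhgef1, a guanine nucleotide exchange factor, had the highest mean level. It averaged 1157 ± 655 CPM in KO against 252 ± 205 CPM in WT without overlap of the groups (log2 difference 2.20, SE 0.68, edgeR adjusted p = 0.12).

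The G protein subunits were mostly without a call. Of 10 alpha subunits 0 were called by edgeR, DESeq2 or limma-voom, and 0 had an unadjusted p under 0.05. Gnai2, the main Gi alpha subunit of lymphocytes and a substrate of most of these RGS proteins, averaged 1137 ± 964 CPM in KO against 533 ± 845 CPM in WT (log2 difference 1.09, SE 1.09, edgeR adjusted p = 0.64). Its high values were those of library numbers 1 to 3: the KO libraries of that set and WT replicate 1 held 1667 to 2367 CPM, and the other 6 libraries 62.0 to 398 CPM. Within numbers 4 to 8 the KO libraries held 398, 140 and 317 CPM and the WT libraries 62.0, 198 and 76.1 CPM. Of 9 beta and gamma subunits, 2 gamma subunits were called lower in KO, where 2.7% of all genes were called lower. Gngt2 averaged 2.32 ± 0.96 CPM in KO against 47.2 ± 26.4 CPM in WT (log2 difference -4.35, SE 0.52, edgeR adjusted p = 0.0023) and kept its call without any 1 library. The B cell and the macrophage and monocyte markers moved in the same direction, and their part in the Gngt2 call was not tested. Gng2 averaged 23.2 ± 8.40 CPM in KO against 77.8 ± 31.1 CPM in WT (-1.74, SE 0.41, edgeR adjusted p = 0.048), a call kept in only 2 of 10 fits without 1 library, those without WT replicate 1 or 3 (largest edgeR adjusted p = 0.14).

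Receptors that signal through Gi, the inputs that RGS proteins damp, held most of the calls in the pathway. Of 17 tested, 6 were called lower and 0 higher in KO, where 2.7% of all genes were called lower, with a median log2 fold change of -3.44 beside -0.12 over all genes; 13 had an unadjusted p under 0.05, beside 18% of all genes. Ccr8, a chemokine receptor of activated and regulatory T cells, averaged 3.14 ± 1.24 CPM in KO against 42.2 ± 18.4 CPM in WT (-3.75, edgeR adjusted p = 0.0034). Cx3cr1, the fractalkine receptor, averaged 0.048 ± 0.067 CPM in KO against 28.8 ± 14.7 CPM in WT (-9.17, edgeR adjusted p = 0.0042). Both kept their calls without any 1 library. Ccr6, Cxcr3 and Cxcr5, named here outside the naming rule, were also called lower. Cxcr5 kept its call in all 10 fits without 1 library, but Cxcr3 lost it without KO replicate 2, 3, 5 or 6 or WT replicate 2 or 4, and Ccr6 kept it only without KO replicate 1 or WT replicate 1. B cells also express Cxcr5 and Ccr6, and monocytes and macrophages also express Cx3cr1; the B cell and the macrophage and monocyte markers moved in the same direction, at the summed levels given above, and their part in these calls was not tested.

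The remaining lists held no call. Of 6 receptor kinases and arrestins 0 were called (1 with an unadjusted p under 0.05), and Grk6, a kinase that marks active receptors, averaged 754 ± 792 CPM in KO against 248 ± 294 CPM in WT. As with Gnai2, its high values, 689 to 1950 CPM, were those of library numbers 1 to 3. Of 11 receptors coupled to other G proteins 0 were called and 4 had an unadjusted p under 0.05, where 18% of all genes did. Adora2a, the Gs-coupled adenosine receptor with the highest mean in that list, averaged 168 ± 54.4 CPM in KO against 54.9 ± 27.5 CPM in WT without overlap, just short of a call (1.61, SE 0.39, edgeR adjusted p = 0.053). Of 4 other regulators 0 were called and 0 had an unadjusted p under 0.05, with Gpsm3 averaging 437 ± 135 CPM in KO against 324 ± 166 CPM in WT. Of 15 effectors 0 were called (1 with an unadjusted p under 0.05), with the adenylyl cyclase Adcy7 averaging 437 ± 233 CPM in KO against 308 ± 183 CPM in WT. Of the receptors of other G proteins DESeq2 called 2 and limma-voom 1, all higher in KO, and both tools called 0 genes of the other 3 lists of this paragraph. Of all 14214 genes DESeq2 called 613 higher and 999 lower, and limma-voom 204 higher and 680 lower. WT replicate 1 bore on the edgeR counts. Without it edgeR called 3 effectors lower, 2 kinases or arrestins higher and 1 lower, and 2 receptors of other G proteins in each direction. That fit also called 1 RGS homology protein higher, and 2 of the further genes named after RGS proteins lower. Of all genes it called 2.92% higher and 7.9% lower. Without WT replicate 3 edgeR called 1 alpha subunit lower and 1 receptor of other G proteins higher, beside 411 lower and 307 higher of 14673 genes. Without KO replicate 5 it also called 1 such receptor higher, beside 40 of 13964 genes.

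**Figure D4:**
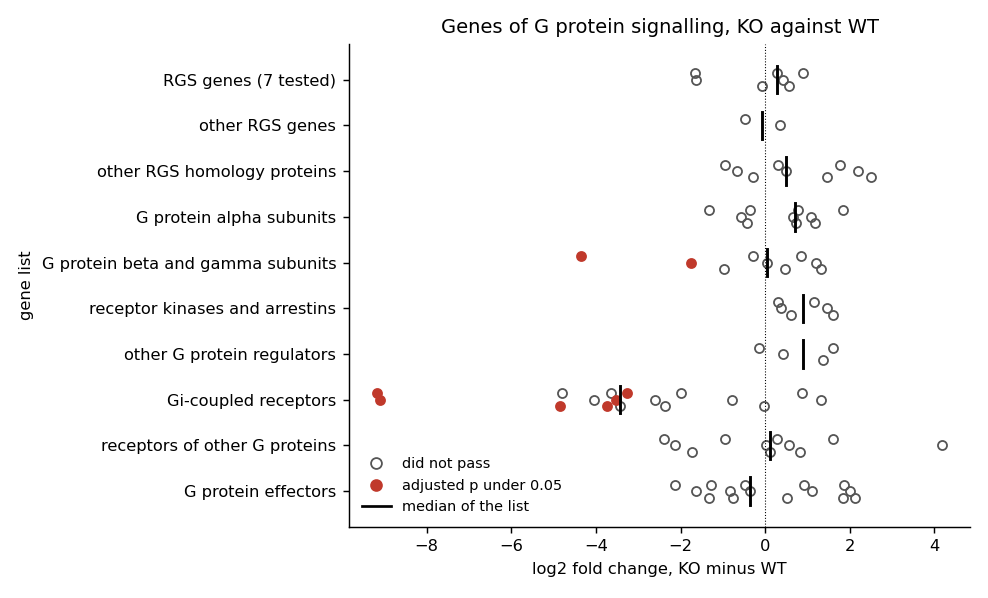
Log2 fold change, KO minus WT (horizontal axis), of the tested genes in each list of G protein signalling. Each circle is 1 gene, filled red at an edgeR adjusted p under 0.05, and black lines are list medians; 6 of 17 Gi-coupled receptors and 2 of 9 beta and gamma subunits are filled, and none of the 7 RGS genes is.

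The genes most alike to each member were sought among 7801 named genes averaging 8 CPM or more, by Pearson's r of log2 CPM over the 10 libraries after each genotype's mean was removed. All pairs share the libraries and hence their depth and library set, and r is given as a description. Rgs1 was most like Ccdc25 (r = 0.96) and Commd8 (0.96), Rgs2 most like Slamf6 (0.96) and Irgm1 (0.96), and Rgs16 most like Frmd4b (0.95) and Tmem19 (0.95). Rgs3 was most like Rab3gap1 (0.98) and Ehd3 (0.97), Rgs10 most like Cotl1 (0.97) and Cox14 (0.97), and Rgs14 most like Dctn2 (0.99) and Dpp3 (0.98). Rgs19, which varied least, had the lowest best match, Ttc7b (0.89), followed by Cnp (0.87). No member was among the best 2 matches of another.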

How the data were processed

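RNA was sequenced from sorted CD4 T cells of 6 KO and 4 WT libraries after SMART-seq v4 amplification (12 cycles from 2 to 10 ng of RNA) and 8 PCR cycles from 10 ng of cDNA, with 50 bp paired reads, per the labels' protocols. The deposited values are raw counts per gene that the authors obtained by assigning read pairs with featureCounts 1.6.2 on GENCODE M17 (GRCm38.p6), per the file headers. No strand option was set and multi-mapping reads were left out, so antisense overlaps cannot be separated and near-identical copies are undercounted. STAR and FastQC are named without a version in the submitters' processing notes.

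Counts were scaled by TMM, filtered with filterByExpr and tested with edgeR 4.0.16 (limma 3.58.1, R 4.3.3) with genotype as the only term. SE is the log2 fold change over the square root of F. Log2 CPM adds a prior count of 2. The procedure was tested on simulated data. Alternatives were other scalings, filters, DESeq2 1.42.0, limma-voom, left-out libraries, blocks, a library-set term and each set alone; fits that join the T cell scaling with a set term or a left-out library were added after seeing the data, as were protein-coding transcript lengths (GENCODE M21) in place of the merged exon lengths of the deposited counts. Members, lists and the naming rule were chosen with earlier results of these data known. The rule named the members, Tox and Pdcd1, up to 3 called genes per pathway list or else its most abundant gene, the 2 most alike genes per member, and the 2 most abundant markers per cell type. Not every gene that the rule names is reported here. Same-numbered replicates were not paired by the labels.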

Additional observations from a re-analysis of the deposited data

Results flagged for a closer look

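Rgs10 in WT replicate 1 stood at 283 CPM, while the other WT libraries held 53.9 to 90.8 CPM. Its gap to the nearest of them took up 0.839 of the group's range, above the Dixon limit for 4 libraries. Of 15 groups of RGS values checked it was the only one past its limit, and chance alone passes about 1 in 20. That library is also the 1 WT library of numbers 1 to 3.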

How the results depend on the processing

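Of 168 values of the 7 tested members under 24 other settings, 153 kept sign and side of the threshold, 3 passed it and 12 turned sign. The number of members called lower went from 0 to 2 when scaled to 8 T cell genes, beside 1862 of 14214 genes. It also went to 2 when a library-set term was added to that scaling, beside 1627 of 14214 genes. Without 1 library under that scaling it ranged from 0 to 3. The 0 was without WT replicate 4, where 570 of 14644 genes were called lower. The 3 was without WT replicate 1, where 4719 of 15197 genes were. The number called higher went from 0 to 1 without WT replicate 1, beside 443 of 15197 genes. It was 0 in the other fits without 1 library. Rgs2 turned sign with the library-set term (0.20), in numbers 1 to 3 (0.44) and in numbers 4 to 8 (0.17), and ranged from -0.28 to 0.21 without 1 library under TMM and from -1.31 to -0.87 under the T cell scaling. Rgs10 turned in numbers 1 to 3 (-0.48). Scaling to T cell genes turned Rgs3 (-0.38), Rgs10 (-0.15) and Rgs19 (-0.55). With the library-set term as well, Rgs3 was at -0.031, Rgs10 at -0.40, Rgs14 at -0.024 and Rgs19 at -0.62. Without 1 library under that scaling Rgs3 ranged from -0.71 to 0.021, Rgs10 from -0.36 to 0.20, Rgs14 from -0.25 to 0.86 and Rgs19 from -0.78 to -0.17. Under TMM their highest values without 1 library were 0.88, 1.25, 1.27 and 0.38. The cause of these turns was not tested.

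With the replicate block 0 members were called, Rgs1 at -2.22 (edgeR adjusted p = 0.27) and Rgs16 at -2.43 (0.17), and 0 of all genes. Same-numbered libraries correlated at 0.29, -0.25, -0.22 and 0.30 after group means were removed. Only replicate 4 of WT correlated best with its own number. Each value rests on 1 pair of libraries, so these correlations cannot settle whether the numbers pair them. The labels do not pair them. The library numbers 2 and 6, which both groups hold, correlated at 0.32 and 0.13; with them as a block 0 members were called, Rgs1 at -1.69 (edgeR adjusted p = 0.21) and Rgs16 at -1.75 (0.16), and of all genes 48 were called higher and 288 lower.

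Under the 24 other settings, the number of all genes called higher ranged from 0 (replicate block) to 613 (DESeq2), beside 61. Those called lower ranged from 0 (replicate block) to 1862 (scaled to T cell genes), beside 384. Among the fits added after the data were seen, 4719 were called lower under the T cell scaling without WT replicate 1. DESeq2 called 999 of all genes lower. The Gi-coupled receptors called lower were 10 with DESeq2 and 0 within library numbers 1 to 3.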

Other observations

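Markers of further cell types gave these summed levels, as values only. The 5 plasma cell markers summed to 10.8 to 57.9 CPM in KO and 321 to 5533 CPM in WT, with Mzb1 and Jchain called lower (Jchain in only 3 of 10 fits without 1 library). The 4 germinal centre B cell markers summed to 0 to 13.5 CPM in KO and 37.6 to 77.5 CPM in WT. The 6 dendritic cell markers summed to 0.79 to 5.63 CPM in KO and 2.80 to 61.0 CPM in WT. The 4 NK cell markers summed to 168 to 273 CPM in KO and 8.17 to 64.6 CPM in WT. Klrb1c averaged 224 CPM in KO against 32.0 CPM in WT and was called higher (2.81 on the log2 scale, edgeR adjusted p = 0.012; not called without WT replicate 4, 0.065). Ncr1, the other tested NK cell marker, was lower by mean and not called (-3.16, edgeR adjusted p = 0.44). The 2 CD8 T cell markers summed to 37.8 to 79.5 CPM in KO and 71.5 to 118 CPM in WT. The 5 stromal and endothelial markers, mostly Pecam1, summed to 172 to 378 CPM in KO and 81.9 to 360 CPM in WT, and the 4 melanoma markers to 2.46 to 6.17 and 0 to 6.93 CPM.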
